A study of Homo sapiens with 12 samples.

Results

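Mitochondrial ribosomal protein genes were taken as the genes whose symbol was MRPL or MRPS followed by a number and, where present, a letter from A to C. The rule found 78 members among the 29696 genes of the expression table, 49 of them named for the large subunit (MRPL) and 29 for the small subunit (MRPS). A375 is an established human melanoma cell line. The cells carried a lentiviral short hairpin RNA, either against ALKBH5, an enzyme that removes the m6A mark (N6-methyladenosine) from RNA (shALKBH5), or a scrambled control (shCtrl), and which of the ALKBH5 hairpins was used is not given in the labels. Poly(A) RNA was sequenced before immunoprecipitation (input, 3 libraries per group) and after pull-down with an antibody to m6A (IP, 3 libraries per group). The labels do not say whether the 3 libraries of a group came from separate cultures, so p-values measure the spread between these libraries, which may be technical.

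Mitochondria keep a ribosome of their own, which translates the few messages of the mitochondrial genome into core subunits of the respiratory chain. Its ribosomal RNAs are transcribed inside the organelle, whereas all of its proteins are encoded in the nucleus, made in the cytosol and imported. Some of these proteins descend from bacterial ribosomal proteins and others are found only in mitochondria, and supply of both genomes' products has to meet in the matrix for a working particle to form.

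The hairpin target was checked first. ALKBH5 stood at 19.3, 17.8 and 17.6 FPKM (fragments per kilobase of transcript and scaled to the fragments mapped in the library) in the 3 shCtrl input libraries and at 3.39, 3.92 and 3.12 FPKM in the 3 shALKBH5 libraries. All shALKBH5 values lay under all shCtrl values, with a log2 fold change of -2.36 (95% interval -2.57 to -2.15, adjusted p = 1.28e-06 in limma). The two-sided exact permutation p over the 6 libraries was 0.1, the smallest that 3 against 3 allows.

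Of the melanocyte lineage markers, SOX10 was the most abundant, at 192, 182 and 179 FPKM in shCtrl and 180, 180 and 181 FPKM in shALKBH5, and its ranges overlapped. PMEL, TYR, DCT and TYRP1, the pigment genes, were under the filter of a mean of 0.5 FPKM over the 6 libraries in a line that otherwise carried the lineage factor. S100B (log2 fold change 1.32), S100A1 (1.21) and MITF (0.63, adjusted p = 0.0475, with overlapping groups) rose. Summed over the 8 of 9 lineage markers in the table, MLANA being absent from it, the level was 226, 218 and 216 FPKM in shCtrl and 269, 271 and 267 FPKM in shALKBH5. Of the 7 markers of other cell types, 4 were in the table and KRT5, PTPRC and CD3E were not. Their summed level was 9.41, 8.17 and 8.49 FPKM in shCtrl and 3.52, 3.66 and 3.79 FPKM in shALKBH5, most of it PDGFRB, while the endothelial marker PECAM1 was listed at 0.0326 FPKM at most. PDGFRB (log2 fold change -1.38) and KRT14 (-1.22) fell, whereas COL1A1 leaned higher (0.24, adjusted p = 0.263 in limma) and was not called. Mean levels of these 3 tested genes ran from 0.501 to 4.99 FPKM (PDGFRB), with a median of 0.665 FPKM. KRT14 and COL1A1 thus lay near the filter. The part of either marker list in the results on mitochondrial ribosomal protein genes was not tested.

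All 78 members passed the filter, so every count below is over the full set. Per unit of transcript length, the members' mean levels over the 6 libraries ran from 1.73 FPKM for MRPL42 to 132 FPKM for MRPL12, a ratio of 76.0. The median member level was 18.8 FPKM, against 3.93 FPKM over all 12985 genes tested. MRPL12, MRPL41, MRPS34, MRPL53 and MRPL51 were the 5 most abundant and made up 25.3% of the members' summed FPKM. MRPL42, MRPL1 and MRPL19 had the lowest means, at 1.73, 2.48 and 3.33 FPKM. Replicates lay close together: the median coefficient of variation of a member was 5.82% in shCtrl, with MRPL19 the most variable at 15.6%, and 3.7% in shALKBH5, with MRPS31 the most variable at 11.7%.

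The members' FPKM summed to 2016.2, 1878.8 and 1970.1 in the shCtrl libraries and to 2131.1, 2164.6 and 2131.4 in the shALKBH5 libraries. As a share of all FPKM in a library these sums were 0.921%, 0.883% and 0.906% in shCtrl and 0.96%, 0.97% and 0.957% in shALKBH5. The sums of the groups did not overlap and were higher with the ALKBH5 hairpin on both scales. FPKM are scaled within each library, so a rise of the members cannot be told apart from a fall of other transcripts. In bulk RNA, more cells of a kind and more RNA per cell cannot be told apart either.

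With ALKBH5 lowered, more members rose than fell. By limma on log2(FPKM + 0.1), with p-values adjusted over all genes tested and a threshold of 0.05, 55 of the 78 members (70.5%) were called, where 61.0% of all tested genes were called. Of these, 43 members (55.1%) were higher in shALKBH5, beside 34.7% of all genes, and 12 members (15.4%) were lower, beside 26.2% of all genes. The median log2 fold change of the members was 0.22, against 0.09 over all genes tested. With libraries scaled by their median ratio these medians were 0.14 and 0.01, and 35 members rose and 13 fell, where 28.9% of all genes rose and 30.2% fell. The changes were small in size: 1 member (1.28%) moved by more than 1 on the log2 scale, where 12.3% of all genes did. The median fold was 1.36 among the 43 raised members and 0.789 among the 12 lowered ones. The libraries of the groups did not overlap for 60 members, 76.9% of the set, where 67.0% of all tested genes had groups that did not overlap. These counts and medians describe the set, and no test was run over its members.

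**Figure D1:**
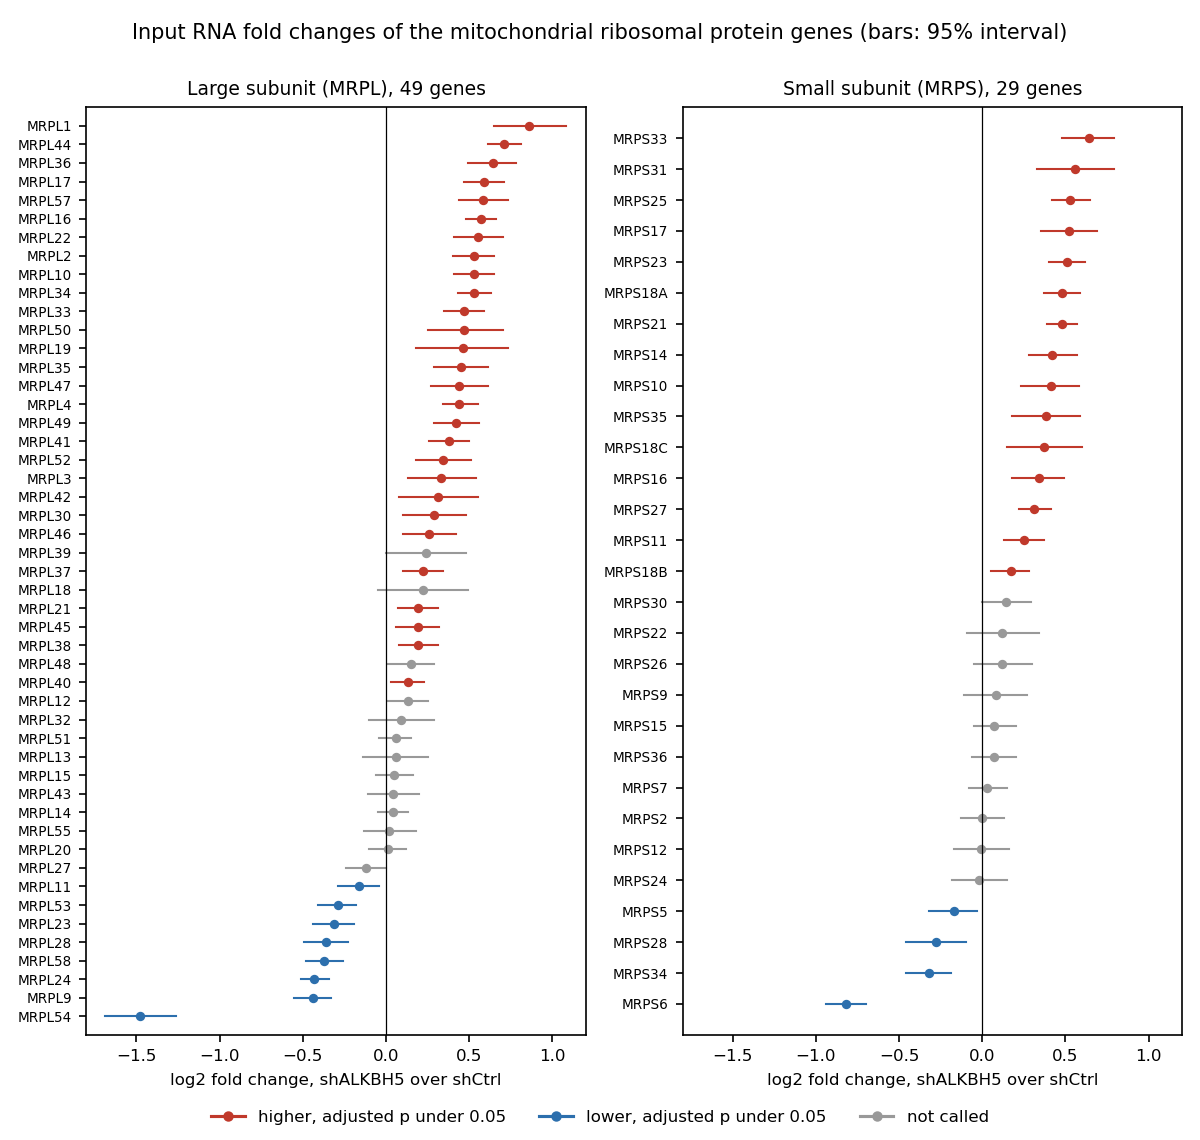
Log2 fold change of each member in input RNA, shALKBH5 over shCtrl (3 libraries each), with large subunit genes on the left and small subunit genes on the right. Points are limma estimates, bars are 95% intervals, and colours give the call at an adjusted p under 0.05. MRPL54 at -1.48 and MRPS6 at -0.82 lie apart from the other members.

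**Figure D2:**
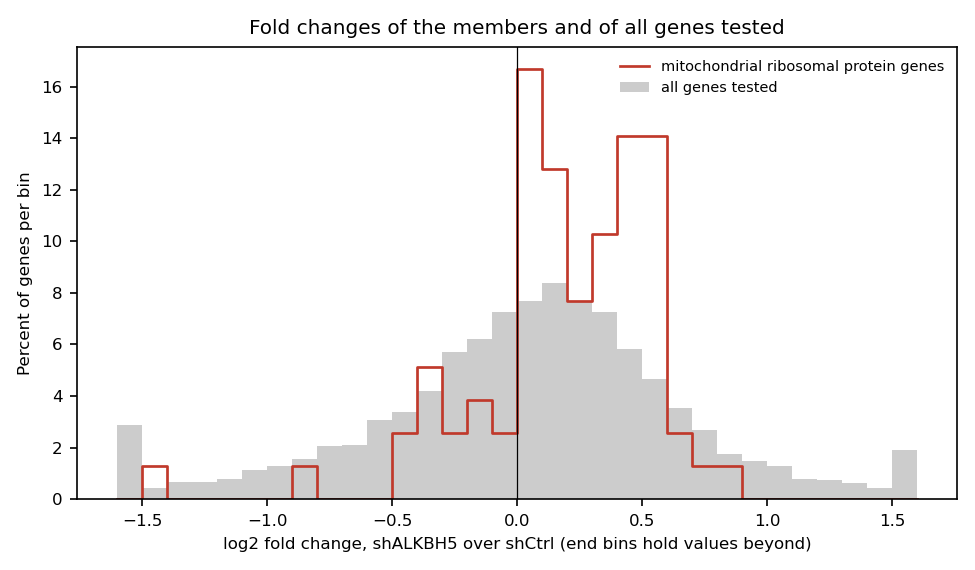
Percent of genes in each bin of 0.1 on the log2 fold change axis for all 12985 genes tested (grey bars) and for the 78 members (red line), where the bins at both ends also hold all values beyond them. The members lie mostly between 0 and 0.6 and have few values in the tails that all genes fill.

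Both subunits held more raised than lowered genes. Of the 49 MRPL genes, 28 rose (57.1%), 8 fell (16.3%) and 13 were not called, with a median log2 fold change of 0.22. Of the 29 MRPS genes, 15 rose (51.7%), 4 fell (13.8%) and 10 were not called, with a median of 0.17, where 34.7% of all tested genes rose and 26.2% fell. The symbols do not map onto the particle without exception, since the products of MRPS18A and MRPS30 are known as parts of the large subunit. The median mean level was 17.7 FPKM for the raised, 25.4 FPKM for the lowered and 20.9 FPKM for the members not called, and a difference in level was not tested. Across the 78 genes, which are not independent replicates, the Spearman correlation of log2 fold change with mean level was -0.22, against -0.01 over all genes tested.

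Because many members moved in one direction, their promoters were read for shared letters. RefSeq promoter windows on GRCh38.p14, each 300 bases with 250 before and 50 after a transcript start, matched 69 of the 78 members with 85 windows, and MRPL2, MRPL10, MRPL13, MRPL15, MRPL21, MRPL23, MRPL35, MRPS28 and MRPS36 had no entry. Each of 4 motifs was searched on both strands, with spellings chosen after the members' windows had been seen. CCGGAAG, the core that ETS family factors such as GABPA bind, was in a window of 30 of the 69 members (43.5%), in 23.3% of the 9157 tested genes with a window and in 10.3% of all 35116 windows. AAGATGGCG, the letters known for YY1, was in 13 members (18.8%), in 4.96% of the tested genes and in 1.75% of all windows. CGCNTGCG, the centre of the NRF1 motif, was in 15 members (21.7%), in 22.7% of the tested genes and in 10.0% of all windows. CACGTG, the E-box, was in 9 members (13.0%), in 12.8% of the tested genes and in 7.26% of all windows. A match describes letters in the window and is not a measured binding site. The start that the expression table lists for a gene was within 50 bp of a window's start for 49 of the 69 members and farther than 250 bp from it for 15.

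By direction, CCGGAAG was in 16 of the 39 raised members with a window, in 5 of the 10 lowered ones and in 9 of the 20 not called. AAGATGGCG was in 10 of the 39 raised members, in 0 of the 10 lowered ones and in 3 of the 20 not called. CGCNTGCG was in 12, 0 and 3 of them, and CACGTG in 7, 0 and 2. Windows farther than 250 bp from the listed start were kept. Among the lowered members these were MRPL11 (27890 bp), MRPS5 (27431 bp), MRPL28 (751 bp), MRPL24 (502 bp) and MRPS6 (354 bp). Among the raised members they were MRPL37 (16126 bp), MRPL36 (1529 bp), MRPL40 (643 bp), MRPS27 (406 bp), MRPS33 (276 bp) and MRPS11 (255 bp). The counts of 0 thus rest in part on windows away from the listed start. With 10 lowered genes the counts were not tested, and shares among all raised or lowered tested genes are not given here. MRPL36, a zinc-binding large subunit protein and among the 4 most raised members, held 3 of the motifs. MRPL1, the most raised member, held none of the 4, and MRPL44, next to it, held CGCNTGCG.

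The windows of MRPL36 (chr5:1799788-1800087, minus strand), MRPS18A (chr6:43687742-43688041, minus strand) and MRPL54 (chr19:3762432-3762731, plus strand) are shown because they hold these motifs in raised and in lowered genes, and that of MRPS6 (chr21:34073328-34073627, plus strand) because this lowered gene held none. The expression table lists the same start as the window for MRPS18A and MRPL54, but a start 1529 bp from it for MRPL36 and 354 bp from it for MRPS6, where the window's start, base 34073578, is the listed start of the overlapping gene SLC5A3. Letters run 5′ to 3′ on the gene's strand, and capitals mark a match of any of the 4 motifs on either strand.
MRPL36: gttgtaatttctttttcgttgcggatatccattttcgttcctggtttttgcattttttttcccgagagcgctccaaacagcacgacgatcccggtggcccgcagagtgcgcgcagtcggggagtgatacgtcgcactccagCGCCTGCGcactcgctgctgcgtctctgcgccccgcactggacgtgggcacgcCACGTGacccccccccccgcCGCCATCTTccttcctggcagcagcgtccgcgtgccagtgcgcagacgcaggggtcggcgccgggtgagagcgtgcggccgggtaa
MRPS18A: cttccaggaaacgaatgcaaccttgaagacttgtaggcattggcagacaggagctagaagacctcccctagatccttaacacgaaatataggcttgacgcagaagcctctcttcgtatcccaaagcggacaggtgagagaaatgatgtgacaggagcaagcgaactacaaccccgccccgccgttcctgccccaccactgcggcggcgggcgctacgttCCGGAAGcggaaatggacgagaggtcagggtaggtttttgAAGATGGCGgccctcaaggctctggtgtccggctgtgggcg
MRPL54: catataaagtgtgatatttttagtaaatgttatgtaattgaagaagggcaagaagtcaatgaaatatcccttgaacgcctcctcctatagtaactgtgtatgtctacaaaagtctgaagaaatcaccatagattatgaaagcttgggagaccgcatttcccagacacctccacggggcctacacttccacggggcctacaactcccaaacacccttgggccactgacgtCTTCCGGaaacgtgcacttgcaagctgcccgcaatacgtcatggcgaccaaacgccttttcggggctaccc
MRPS6: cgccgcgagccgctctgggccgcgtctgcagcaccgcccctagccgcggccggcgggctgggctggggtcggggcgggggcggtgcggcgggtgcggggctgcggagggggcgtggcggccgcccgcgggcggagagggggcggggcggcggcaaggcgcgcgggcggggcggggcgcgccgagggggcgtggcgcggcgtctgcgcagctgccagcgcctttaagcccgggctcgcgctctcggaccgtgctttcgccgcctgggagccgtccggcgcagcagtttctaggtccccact
In MRPL36 the matches start at base 142 (CGCNTGCG), base 195 (CACGTG) and base 215 (AAGATGGCG, reversed) of the window. In MRPS18A they start at base 220 (CCGGAAG) and base 260 (AAGATGGCG), and in MRPL54 at base 230 (CCGGAAG, reversed).

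MRPL46 and MRPS11 form a divergent pair on chromosome 15, with starts 63 bp apart in the files' annotation, so that 1 stretch of DNA lies upstream of a large and a small subunit gene. Their windows, MRPL46 at chr15:88467339-88467638 on the minus strand and MRPS11 at chr15:88467458-88467757 on the plus strand, share 181 bases. These windows have starts 320 bp apart, since the MRPS11 window starts its transcript 255 bp from the start in the expression table. The only match to the 4 motifs in either was AAGATGGCG, at base 259 of the MRPL46 window and outside the shared stretch. By the listed start of MRPS11, base 88467453, this match lies upstream of that gene too.
MRPL46: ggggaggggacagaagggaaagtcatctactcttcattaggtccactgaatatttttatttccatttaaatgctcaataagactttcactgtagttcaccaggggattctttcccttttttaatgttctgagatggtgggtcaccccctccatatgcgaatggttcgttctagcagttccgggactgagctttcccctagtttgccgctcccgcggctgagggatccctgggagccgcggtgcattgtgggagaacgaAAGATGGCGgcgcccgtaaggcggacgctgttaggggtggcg
MRPS11: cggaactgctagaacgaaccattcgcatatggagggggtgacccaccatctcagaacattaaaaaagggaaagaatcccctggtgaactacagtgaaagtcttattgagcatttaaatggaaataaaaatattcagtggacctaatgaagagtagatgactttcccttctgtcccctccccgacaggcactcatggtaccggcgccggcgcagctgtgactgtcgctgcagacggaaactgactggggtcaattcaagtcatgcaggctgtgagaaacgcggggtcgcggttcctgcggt
MRPL46 stood at 4.13, 3.67 and 3.83 FPKM in shCtrl and 4.66, 4.81 and 4.52 FPKM in shALKBH5. MRPS11 stood at 11.9, 10.8 and 11.2 FPKM in shCtrl and 13.3, 13.6 and 13.4 FPKM in shALKBH5. All shALKBH5 libraries were above all shCtrl libraries for both genes, which rose by nearly the same step (log2 fold change 0.26, adjusted p = 0.0115, for MRPL46 and 0.25, adjusted p = 0.00387, for MRPS11). Scaling the libraries by their median ratio ended the MRPL46 call (0.18, adjusted p = 0.0699; over its alternatives 0.00656 to 0.0699). Counting every listed gene, 31 of the 78 members had a start on the opposite strand within 1000 bp of their own. Such pairs did not all move together. MRPS34 fell (log2 fold change -0.32) where EME2 rose (0.7), and NCAPD2 fell (-1.07) beside MRPL51 (0.06), which was not called. MRPS27 (0.31) and PTCD2 (0.44) both rose, as did MRPL49 (0.42) and FAU (0.34). A part of the shared stretch in the changes was not tested.

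Among the large subunit genes, the most raised was MRPL1, the counterpart of the bacterial protein of the L1 stalk. It stood at 1.68, 1.94 and 1.58 FPKM in shCtrl and at 3.29, 3.14 and 3.26 FPKM in shALKBH5, a low level in both groups. The groups were well apart (log2 fold change 0.86, 95% interval 0.65 to 1.08, adjusted p = 1.54e-04). MRPL44, whose product has a fold related to RNase III, stood at 11.7, 11.6 and 11.2 FPKM in shCtrl and at 18.5, 19.1 and 19.0 FPKM in shALKBH5. Its libraries agreed closely within each group, and the log2 fold change was 0.71 (0.61 to 0.81, adjusted p = 9.77e-06). MRPL36 stood at 21.4, 22.8 and 25.1 FPKM in shCtrl and at 35.4, 35.4 and 37.1 FPKM in shALKBH5, with no overlap (log2 fold change 0.64, adjusted p = 9.43e-05).

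MRPL17, the relative of bacterial L17, was among the more abundant raised genes, at 39.9, 35.2 and 38.0 FPKM in shCtrl and 55.5, 57.5 and 57.2 FPKM in shALKBH5. All of its shALKBH5 values were above 50 FPKM and all of its shCtrl values below 40 FPKM (log2 fold change 0.59, adjusted p = 5.83e-05). MRPL57, a subunit found only in mitochondria, rose by 0.58 on the log2 scale, from a mean of 14.1 ± 0.585 (SD, n = 3) to 21.3 ± 1.48 FPKM. MRPL16, which lies near the peptidyl transferase centre, rose by 0.57, from 37.4 ± 0.336 to 55.6 ± 1.93 FPKM. MRPL22, at the wall of the exit tunnel, rose by 0.55, from 5.28 ± 0.276 to 7.78 ± 0.287 FPKM, and MRPL34 rose by 0.53, from 25.6 ± 0.808 to 37.0 ± 1.15 FPKM. MRPL41, the second most abundant member, rose by 0.38, from 102 ± 6.78 to 132 ± 1.92 FPKM.

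The stalk proteins MRPL10 and MRPL12, recruit translation factors to the ribosome. MRPL10 stood at 31.3, 28.1 and 29.4 FPKM in shCtrl and at 41.3, 43.2 and 43.7 FPKM in shALKBH5. MRPL12, the most abundant member, stood at 134, 117 and 126 FPKM in shCtrl and at 138, 134 and 140 FPKM in shALKBH5. MRPL10 rose (log2 fold change 0.53, adjusted p = 8.75e-05), whereas the MRPL12 groups came close to each other at 134 FPKM and the gene was not called (log2 fold change 0.13, 95% interval 0.01 to 0.25, adjusted p = 0.0658). Without shCtrl library 1 MRPL12 passed the threshold (0.18, adjusted p = 0.0134). Whether the changes of the 2 genes differ was not tested.

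Of the 8 lowered large subunit genes, MRPL54 stood out. This gene for a subunit found only in mitochondria stood at 33.7, 27.9 and 29.3 FPKM in shCtrl and at 11.6, 9.7 and 11.2 FPKM in shALKBH5. Its highest shALKBH5 library was below its lowest shCtrl library by a wide margin, and it had the largest change of the 78 members (log2 fold change -1.48, 95% interval -1.69 to -1.26, adjusted p = 1.06e-05, a fold of 0.359). MRPL54 moved from above the median member level in shCtrl to below it in shALKBH5.

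MRPL9 stood at 38.5, 38.3 and 40.9 FPKM in shCtrl and at 28.7, 30.1 and 28.0 FPKM in shALKBH5, and MRPL24 at 61.0, 57.4 and 58.4 FPKM in shCtrl and at 44.0, 44.1 and 43.4 FPKM in shALKBH5. Both have bacterial counterparts, and both fell without overlap of the groups (log2 fold change -0.44, adjusted p = 1.36e-04, and -0.43, adjusted p = 5.80e-05). MRPL58, a peptidyl-tRNA hydrolase that frees stalled ribosomes and is also built into the large subunit, fell by 0.37 on the log2 scale, from 21.3 ± 0.693 to 16.4 ± 0.627 FPKM. MRPL28 fell by 0.36, from 47.4 ± 2.96 to 36.9 ± 1.32 FPKM. MRPL23, beside the exit of the peptide tunnel, fell by 0.31, and MRPL53, the fourth most abundant member, by 0.29, from 97.8 ± 2.39 FPKM, with shALKBH5 values of 74.8, 83.3 and 81.8 FPKM. MRPL11, at the base of the stalk, fell by 0.16 (adjusted p = 0.0324), the smallest of these steps, and its call was lost when any library other than shCtrl library 2 was left out (adjusted p from 0.0687 to 0.0998, and 0.00393 without that library), without the variance trend (0.0708) and without the filter (0.0695).

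**Figure D3:**
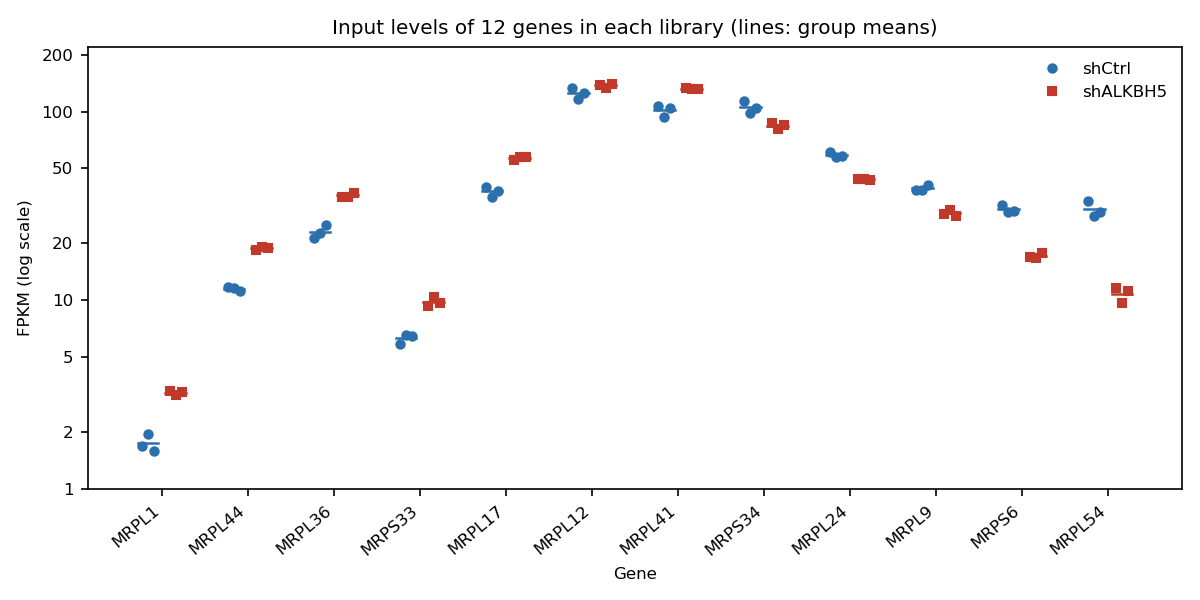
FPKM on a log axis of 12 members in each input library, shCtrl as circles and shALKBH5 as squares, with group means as lines. The 5 genes on the left are the most raised members, MRPL12, MRPL41 and MRPS34 are the most abundant, and the 4 on the right are the most lowered, where MRPL54 falls from about the level of MRPS6 to that of MRPS33.

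Among the small subunit genes, MRPS33, found only in mitochondria, was the most raised, at 5.85, 6.5 and 6.44 FPKM in shCtrl and 9.32, 10.4 and 9.67 FPKM in shALKBH5. The groups did not overlap (log2 fold change 0.64, 95% interval 0.48 to 0.79, adjusted p = 1.37e-04). MRPS31 stood at 3.41, 3.68 and 3.97 FPKM in shCtrl and at 5.14, 6.22 and 5.09 FPKM in shALKBH5, where the second library was the high one. It rose by 0.56 on the log2 scale with an adjusted p of 0.00194. MRPS25 rose by 0.53, from 9.27 ± 0.226 to 13.4 ± 0.499 FPKM (adjusted p = 7.36e-05).

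The MRPS18 family has 3 nuclear genes that descend from the gene for bacterial S18. MRPS18A stood at 50.2, 44.7 and 46.6 FPKM in shCtrl and at 66.7, 66.0 and 64.7 FPKM in shALKBH5. MRPS18B stood at a mean of 39.0 ± 2.17 FPKM in shCtrl and at 43.1, 43.0 and 45.1 FPKM in shALKBH5, and MRPS18C, the form kept at the bacterial position, at 3.44, 2.95 and 3.65 FPKM in shCtrl and 4.64, 4.36 and 4.06 FPKM in shALKBH5. All 3 rose with no overlap of the groups, with log2 fold changes of 0.48 (adjusted p = 1.17e-04), 0.17 (0.0229) and 0.37 (0.0116). The call of MRPS18B was lost when libraries were scaled by their median ratio (log2 fold change 0.09, adjusted p = 0.277), and without shALKBH5 library 1 (adjusted p = 0.0524) or 3 (0.0801). It was also lost without the variance trend (0.0596) and without the filter (0.053).

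MRPS6, the relative of bacterial S6 on the platform of the small subunit, stood at 32.1, 29.5 and 29.7 FPKM in shCtrl and at 17.0, 16.7 and 17.8 FPKM in shALKBH5. It had the second largest fall of all members (log2 fold change -0.82, 95% interval -0.94 to -0.70, adjusted p = 1.07e-05), with tight replicates in each group. SLC5A3, a myo-inositol transporter gene that lies within the MRPS6 span on the same strand, stood at 14.3, 18.3 and 13.4 FPKM in shCtrl and at 6.52, 4.99 and 6.42 FPKM in shALKBH5. The neighbour fell as well (log2 fold change -1.34, adjusted p = 1.48e-04), and how fragments in the shared span were assigned is not given, so the value of MRPS6 is uncertain.

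MRPS34, the third most abundant member, stood at 114, 98.3 and 105 FPKM in shCtrl and at 86.9, 81.3 and 84.7 FPKM in shALKBH5, with no overlap (log2 fold change -0.32, adjusted p = 0.0022). MRPS28 fell by 0.28 (adjusted p = 0.015) and MRPS5, near the entry of the messenger RNA, by 0.17 (adjusted p = 0.0457). Both were at under 12 FPKM in every library. Leaving out 1 library ended the MRPS28 call in 3 of 6 cases, with adjusted p of 0.0526 and 0.0516 without shALKBH5 library 1 or 3 and 0.0522 without shCtrl library 3. It ended the MRPS5 call for every library but shCtrl library 1, with adjusted p from 0.0669 to 0.15, and 0.0397 without that library. The MRPS5 call was also lost without the filter (0.055) and with the replicate number as a block (0.116).

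The 23 members not called had log2 fold changes from -0.12 (MRPL27) to 0.24 (MRPL39), and their 95% intervals reached from -0.24 to 0.49. The log2 fold changes of MRPS24, MRPS12, MRPS2, MRPL20 and MRPL55 ran from -0.02 to 0.02. A missed threshold does not show that these genes stayed equal. In 5 of the 23, all shALKBH5 libraries were on one side of all shCtrl libraries: MRPL48, MRPS30, MRPL12, MRPS15 and MRPL27, the last of them lower in shALKBH5. Of all tested genes, called or not, 67.0% had groups that did not overlap. The share among all genes not called is not given here, so the 5 are a description only.

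Several members share sequence or span with other listed genes, and the strand setting of the authors' counting is not given in the sources used here. On the same strand 19 members overlapped another listed gene, and on the opposite strand 32 did. Beside SLC5A3, the tested neighbours on the same strand included PGAP6 at MRPL28 (log2 fold change 0.59) and CCDC142 at MRPL53 (0.59), both of which moved against the member they overlap. NIPSNAP2 at MRPS17 was not called, with a log2 fold change of -0.26 beside 0.52 for MRPS17. For 11 members the table also listed a numbered pseudogene, with levels up to 2.86 FPKM for those of MRPS31, 2.51 FPKM for those of MRPL45 and 1.72 FPKM for that of MRPL3. How many fragments were shared with the pseudogenes was not measured, so the values of MRPS31, MRPL45 and MRPL3 are uncertain.

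Of the 5 listed subunits that carry other names, DAP3, AURKAIP1 and GADD45GIP1 rose, with log2 fold changes of 0.26, 0.26 and 0.25. These made up 60.0% of the list, beside 34.7% of all tested genes, and 0 fell, beside 26.2%. CHCHD1 (0.09) and PTCD3 (0.01) were not called. DAP3, a GTP-binding protein of the small subunit, stood at 26.7, 28.1 and 28.2 FPKM in shCtrl and at 32.9, 34.5 and 31.8 FPKM in shALKBH5, and the groups did not overlap.

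Of 16 listed factors that run mitochondrial translation, 11 rose (68.8%, beside 34.7% of all tested genes) and 2 fell (12.5%, beside 26.2%), with a median log2 fold change of 0.41. Agreement with the subunits was not tested. GUF1, which acts on the elongating ribosome, rose by 0.78, LRPPRC, which binds and stabilises mitochondrial messengers, by 0.69, and MTIF2, the initiation factor that brings the first tRNA, by 0.69. GUF1 stood at 3.26, 4.18 and 3.7 FPKM in shCtrl and 6.7, 6.15 and 6.45 FPKM in shALKBH5, well apart. The factors that fell were C12orf65 (MTRFR), a rescue factor of the release factor family, at -0.89 (adjusted p = 0.00214) and GFM2, a factor for ribosome recycling, at -0.43 (adjusted p = 0.0149). TUFM, the elongation factor that delivers tRNA and by far the most abundant of these genes at a mean of 246 FPKM, was not called (log2 fold change 0.15, adjusted p = 0.0501).

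Of 29 listed assembly factors, 18 rose (62.1%, beside 34.7% of all tested genes), 2 fell (6.9%, beside 26.2%) and 9 were not called, with a median of 0.22 beside 0.09. MRM1, a methyltransferase of the large ribosomal RNA, stood at 5.02, 4.41 and 4.23 FPKM in shCtrl and at 9.97, 8.92 and 9.32 FPKM in shALKBH5, with every shALKBH5 library above every shCtrl library (log2 fold change 1.03, 95% interval 0.85 to 1.22, adjusted p = 3.10e-05). MTG2, a GTPase of large subunit assembly, rose by 0.69 and NGRN by 0.66. TFB1M, which dimethylates the small ribosomal RNA, stood at 6.25, 6.79 and 6.98 FPKM in shCtrl and at 4.28, 4.55 and 4.25 FPKM in shALKBH5. It fell with no overlap (log2 fold change -0.60, adjusted p = 1.58e-04), as did METTL17, a factor of small subunit assembly (-0.28, adjusted p = 0.0143). Taken over both lists, 29 of 45 genes rose (64.4%, beside 34.7% of all tested genes) and 4 fell (8.89%, beside 26.2%), with a median of 0.31 beside 0.09.

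Of 12 listed regulators of mitochondrial biogenesis, 11 passed the filter, 4 rose (36.4%, beside 34.7% of all tested genes) and 2 fell (18.2%, beside 26.2%). TFB2M, a transcription factor of the mitochondrial genome, rose by 0.57, ESRRA by 0.51 and PPRC1, a coactivator of the PGC-1 family, by 0.36, and GABPB1 also rose (0.32). YY1 stood at 7.0, 8.61 and 8.19 FPKM in shCtrl and at 5.59, 5.97 and 5.56 FPKM in shALKBH5 and fell (log2 fold change -0.46, adjusted p = 0.00223), as did NRF1 (-0.30, adjusted p = 0.0317). GABPA itself was not called (0.08), and PPARGC1A was listed at 0.0745 FPKM at most. Binding of these factors at promoters was not measured.

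Of the 15 listed genes of the mitochondrial genome itself, which the mitochondrial ribosome serves, 2 rose (13.3%) and 4 fell (26.7%), beside 34.7% and 26.2% of all tested genes, and the median log2 fold change was 0.00. The large ribosomal RNA MT-RNR2 stood at 15.1, 17.7 and 16.3 FPKM in shCtrl and at 18.7, 20.5 and 21.5 FPKM in shALKBH5 (log2 fold change 0.31, adjusted p = 0.00957), with no overlap. The small ribosomal RNA MT-RNR1 was not called (0.12), and its ranges overlapped. MT-CO2 rose (0.29), whereas MT-ND5 (-0.32), MT-ND4L (-0.31), MT-ND4 (-0.26) and MT-ATP6 (-0.23) fell. The libraries were made from poly(A) RNA, in which these ribosomal RNAs are caught only in part.

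For comparison, 63 of the 82 tested cytosolic ribosomal protein genes rose and 8 fell, with a median log2 fold change of 0.28 (76.8% and 9.76%, beside 34.7% and 26.2% of all tested genes). Of 75 nuclear genes for subunits of oxidative phosphorylation, 38 rose (50.7%) and 9 fell (12%), with a median of 0.16, beside 0.09 over all tested genes. Each of these sets, like the mitochondrial ribosomal proteins, had a few members far below the rest, RPS10 at -1.63 and UQCR11 at -1.67 beside MRPL54 at -1.48. No test compared the sets.

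**Figure D4:**
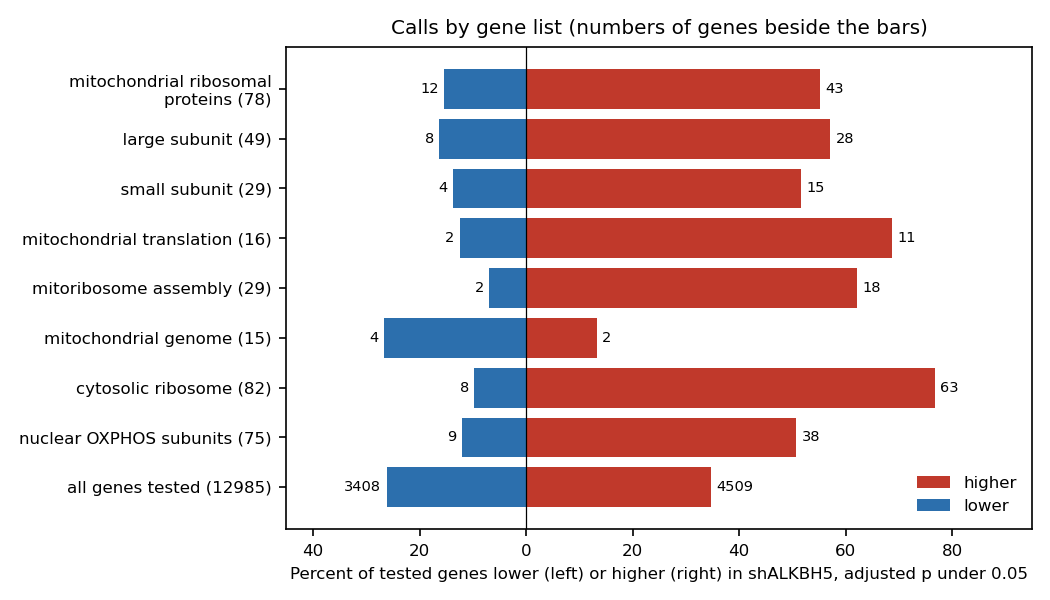
Percent of the tested genes of each list that were lower (left, blue) or higher (right, red) in shALKBH5 at an adjusted p under 0.05, with the number of genes beside each bar and the number tested in brackets. In the mitochondrial ribosomal protein genes 43 were higher and 12 lower, and in the mitochondrial genome 2 were higher and 4 lower.

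The m6A readout of the same genes came from 1 deposited peak list per group, each giving a fold enrichment of IP over input per peak, so peaks have no replicate check. In the shCtrl list 73 of the 78 members (93.6%) had at least 1 peak, where 85.5% of all tested genes had one. In the shALKBH5 list 72 members (92.3%) had one, where 86.0% of all tested genes did. The lists held 131 and 136 member peaks. MRPL13, MRPL38, MRPL53, MRPS10 and MRPS24 had a peak in neither list, and MRPL30 had one in the shCtrl list only. The mean levels of the 5 genes without a peak ran from 6.54 FPKM (MRPL13) to 88.9 FPKM (MRPL53).

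Member peaks were annotated to the 3′ UTR more often than peaks of all tested genes. In the shCtrl list 89 of 131 member peaks lay there (67.9%, 95% Wilson interval 59.5 to 75.3), beside 52.8% over tested genes, and in the shALKBH5 list 92 of 136 (67.6%, 59.4 to 74.9), beside 53.0%. The 5′ UTR held 24 and 26 member peaks, exons 10 and 8, and introns 8 and 10. The intervals cover counting error only, and the difference was not tested. Member peaks were also weaker, with a median fold enrichment of 2.93 in shCtrl and 3.08 in shALKBH5, beside 4.33 and 4.29 over peaks of all tested genes.

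The strongest member peaks are given for each list, which has no replicate. In shCtrl the highest fold enrichments were 24.3 at MRPS33 (chr7:141010218-141014599, minus strand, annotated 5′ UTR), 16.6 at MRPS25 (chr3:15042460-15048550, minus strand, 3′ UTR), 16.6 and 13.6 at MRPL23, 11.5 at MRPL28 and 9.71 at MRPL46. In shALKBH5 they were 17.1 at MRPL42 (chr12:93508962-93509141, plus strand, 3′ UTR), 14.7 at MRPS22, 11.4 at MRPS33, 11 at MRPS27 and 9.92 at MRPS30. Positions are those of the files, whose gene spans overlapped GRCh38.p14 for 77 of 77 members matched by symbol, and a peak's span includes the introns between its exons. The MRPL28 peak in shCtrl had a log10 false discovery rate of -1.48, weaker than the others named here.

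To compare the groups, peaks of the 2 lists sharing 1 bp or more of a gene's strand were paired, each with its best partner. This gave 103 member pairs in 72 genes, with a median ratio of fold enrichments (shALKBH5 over shCtrl) of 0.967, against 0.968 over the 22405 pairs of all tested genes. Member peaks without a partner, 28 in shCtrl and 33 in shALKBH5, are outside this comparison. The ratio was at least 2-fold higher in 3 member pairs (2.91%), where 6.59% of all pairs were, and at least 2-fold lower in 3 (2.91%), where 6.67% of all pairs were. These counts depend on the piece used for MRPS7, counted as higher, and MRPS33, counted as lower, which were cut in 2 in shCtrl. Against the other pieces, at 5.11 and 3.65, MRPS7 (4.9 in shALKBH5) would not be counted. MRPS33 (11.4 in shALKBH5) would then stand on the higher side.

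The 3 higher pairs were MRPS22 (4.89 in shCtrl and 14.7 in shALKBH5, a ratio of 3.01, over a span of 338158 bp), MRPL20 (2.08 and 5.58, 2.68, in an intron) and MRPS7 (1.99 and 4.9, 2.46). The MRPL20 peak was 61 bp long in shCtrl, with a log10 false discovery rate of -1.79, and 358 bp long in shALKBH5, and when pairs had to share 50% of each peak only 2 higher pairs were counted. The MRPS7 region was cut in 2 in shCtrl, and its ratio uses the piece of 1901 bp, while the other piece of 331 bp, also covered by the shALKBH5 peak, had a fold enrichment of 5.11. Next in size came MRPL32 (ratio 1.51) and MRPS14 (1.5). Expression of MRPS22, MRPL20, MRPS7 and MRPL32 was not called. The 3 lower pairs were MRPL23 (16.6 in shCtrl and 2.23 in shALKBH5, a ratio of 0.134, with log10 false discovery rates of -3.4 and -1.76), MRPS25 (16.6 and 5.88, 0.354) and MRPS33 (24.3 and 11.4, 0.469), followed by MRPS16 (0.608) and MRPL42 (0.64), whose peaks had weak log10 false discovery rates of -1.01 in shCtrl and -0.685 in shALKBH5. Among these, MRPL23 fell in expression and the other 4 rose, although the MRPL42 call was lost when any library other than shCtrl library 2 was left out (adjusted p from 0.0603 to 0.0869, and 0.0116 without that library), under both scalings (0.0574 and 0.0562), without the filter (0.052) and with the replicate number as a block (0.0599). The MRPS33 peaks were cut differently in the lists, as 1 span of 8273 bp in shALKBH5 and as 3949 and 4382 bp in shCtrl, and the ratio uses the piece of 4382 bp. The other piece, also covered by the shALKBH5 peak, had a fold enrichment of 3.65, under the 11.4 of that peak, so the direction at MRPS33 depends on the piece compared.

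**Figure D5:**
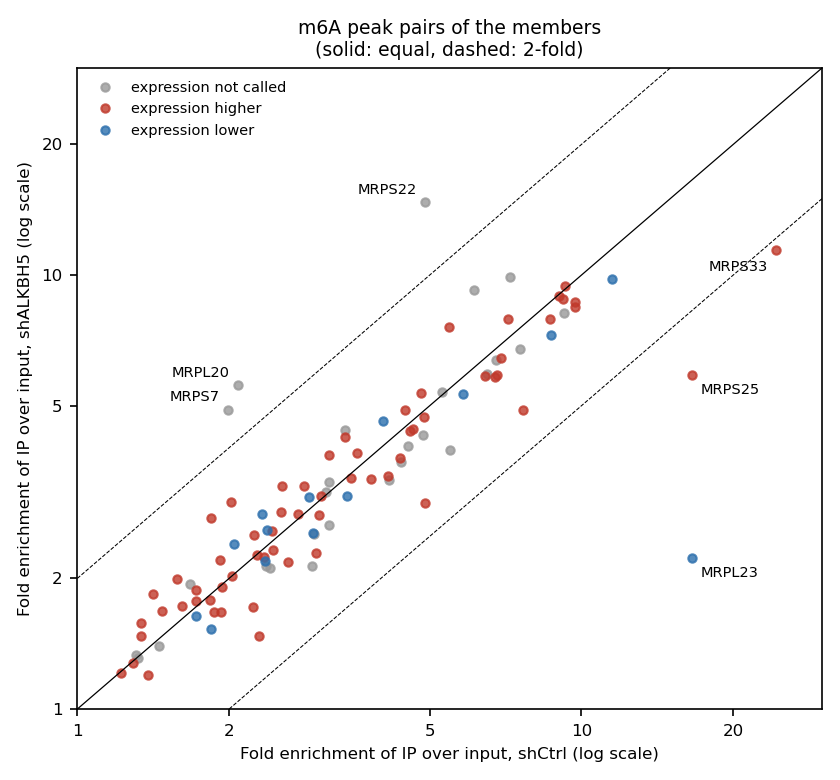
Fold enrichment of IP over input for the 103 member peak pairs, shCtrl on the horizontal and shALKBH5 on the vertical log axis, coloured by the expression call of the gene. The solid line marks equal values and the dashed lines a 2-fold difference, beyond which lie MRPS22, MRPL20 and MRPS7 above and MRPL23, MRPS25 and MRPS33 below. The places of MRPS7 and MRPS33 depend on which shCtrl piece of the region is compared.

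Across the 103 pairs, the Spearman correlation of the log2 ratio with the gene's log2 fold change was 0.02, a description only, since both measures use the input libraries and pairs of a gene are not independent. The median log2 ratio was -0.02 for the 62 pairs in raised genes, -0.12 for the 14 in lowered genes and -0.09 for the 27 in genes not called. MRPL54, the most lowered member, had 1 peak over 5536 bp in each list (chr19:3762682-3768217, plus strand, 3′ UTR), with a fold enrichment of 4.04 in shCtrl and 4.61 in shALKBH5. MRPS6 had 1 peak in its 3′ UTR in each list, at 2.93 and 2.55, and MRPL44 had 1 at 6.81 and 5.88. MRPL1 had 1 paired peak, in an exon, at 1.93 and 1.67. It also had peaks without a partner, at 3.43 in the 3′ UTR in shALKBH5 and at 2.16 in the 5′ UTR in shCtrl. The enrichment ratios of the paired peaks of these 4 genes ran from 0.863 to 1.14.

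The deposited table of peaks compared between the groups, whose rule for listing a peak is not given, listed 38 peaks in 33 of the 78 members (42.3%), and peaks in 4242 of the 12985 tested genes (32.7%). Of the 38, 30 were annotated to the 3′ UTR, 5 to the 5′ UTR, 2 to exons and 1 to an intron.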

How the data were processed

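Input RNA and m6A immunoprecipitates of A375 cells were analysed, 3 input and 3 IP libraries per group, grouped by their labels. Expression levels are FPKM, as the authors computed them for each input library. For m6A, the deposited lists, 1 for each group, hold peaks with a ratio of IP over input (fold enrichment). They also hold, as deposited, a score that is the log10 of the false discovery rate. The study's methods name an R package for quantifying expression, which works on counts. The aligner, the peak caller and the pooling of libraries are not given in the sources used here. The submitters' processing notes name mm10, a mouse build, although the gene spans are human. Columns of the authors' own comparisons (fold changes, p-values, q-values and calls of the expression table, and the log2 fold change, p-value and FDR of the differential peaks) were not used. Read counts were not used. Low FPKM values showed no steps, so the depth per library is unknown and counting intervals of expression are left out.

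The groups' input values were compared on the scale log2(FPKM + 0.1) by the moderated two-sided test of limma (version 3.58.1, under R 4.3.3), with a trend in the prior variance. Genes averaging 0.5 FPKM or more were kept (12985), their p-values were adjusted by Benjamini-Hochberg, and 0.05 was the threshold. The fit was tested on simulated data. Fold changes on this scale understate changes of low genes. Counts, peaks and promoters were handled in Python 3.11.15 with pandas 2.3.3 and numpy 2.4.6, exact tests and intervals in scipy 1.17.1, and plots in matplotlib 3.10.9. Peak starts, which count from 0 in the files, were changed to count from 1. The members and gene lists were chosen with earlier results of these data known. Genes were named by rule: the 12 highest and 12 lowest fold changes among called members, the 3 highest and 3 lowest mean levels, the 5 strongest peaks per list, the 5 largest peak ratios each way, the MRPS18 and stalk genes, and up to 3 genes each way per list. Other genes named were chosen after their values were seen.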

Additional observations from a re-analysis of the deposited data

How the results depend on the processing

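The counts of raised and lowered members, the median of the members and the ALKBH5 change kept their direction with a pseudocount of 1 or 0.01, with a filter at 1 FPKM or none, under both scalings, no variance trend and the replicate block. The members' median fell from 0.22 to 0.14 when libraries were scaled by their median ratio, which moved the median over all genes from 0.09 to 0.01. With the replicate number as a block, 41 members rose and 11 fell. The numbers did not pair the libraries, since deviations of same-numbered libraries correlated at 0.0181, -0.0462 and 0.0591. Leaving out each library in turn gave 38 to 43 raised and 9 to 12 lowered members, a median of 0.18 to 0.24, an ALKBH5 log2 fold change of -2.45 to -2.29, and 21 to 29 raised and 3 to 5 lowered translation and assembly genes. For those genes median ratio scaling gave 21 raised and 5 lowered, and TPM scaling 26 raised and 6 lowered. Of the 55 calls, 46 were kept in all 6 of these fits and 43 in every alternative fit. Among the single members followed through all settings, none changed direction, 32 values lost the call and 1 gained it.

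With peaks limited to a fold enrichment of at least 2 and a false discovery rate of at most 0.01, 82.4% of the member peaks in shCtrl lay in the 3′ UTR, beside 55.1% over tested genes, and 1 pair was at least 2-fold higher (1.37%, beside 6.23% of all pairs) and 2 lower (2.74%, beside 6.27%). With 1.5-fold in place of 2-fold, 6 pairs were lower (5.83%, beside 14% of all pairs) and 4 higher (3.88%, beside 13.0%). The 4 higher pairs leave out MRPS14, whose printed ratio of 1.5 lies at the cut. With either setting MRPS33, whose direction depends on the piece compared, is among the lower pairs. Fewer peaks and a lower fold are what these settings ask for. The unknown depth and 1 peak list per group limit the precision of small differences in enrichment.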
